A study of Mus musculus with 2 samples.

Results

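The 6 genes described here form 3 pairs, Nme7 with Atp1b1, Ulk4 with Ctnnb1 and Fars2 with Nrn1, out of 32285 genes in the count matrices. The first gene of each pair was picked because its level differed by a large ratio between the 2 sections, and because it overlaps the second gene on the opposite strand. The ratios between sections therefore chose the members and are given only as a description. All 6 genes reached the 400 unique molecular identifiers (UMIs, tags that count captured RNA molecules) over both sections that were required for comparison, as did 11460 genes in all.

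The data came from Visium, an assay in which a brain section is laid on a grid of barcoded spots that capture the polyadenylated RNA of the cells above them. One coronal section with the dorsal hippocampus was taken from each of 2 male mice of 3 to 4 months on a C57BL/6 background. Both animals carried the ArcCreERT2::eYFPflx alleles, in which a drug-inducible recombinase under the promoter of Arc can switch on a fluorescent reporter, so the genotype was shared by both groups. The Trained mouse had learned in active place avoidance to stay out of a shock zone on a rotating arena, the Untrained mouse had walked the same arena with the shock off, and both brains were collected 1 h after a memory retention test. With n = 1 section per label, a difference between the sections could not be checked against replicates, the effects of animal, section and library cannot be told apart from that of training, and no p-value was computed. All directions are for the labels as deposited, and whether they match the sections was not checked here.

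Genes on opposite strands can share a stretch of genome, and where their ends meet tail to tail the 2 mature RNAs hold complementary sequence at their 3′ ends. The assay captures RNA by its poly(A) tail and reads near the 3′ end, so the place where such genes overlap is also the place where most of their reads are expected to lie. Read strand decides which of the 2 genes a read is counted for. The partners are well-known brain genes. Atp1b1 encodes the main beta subunit of the Na/K-ATPase, the pump that restores ion gradients in neurons. Ctnnb1 encodes beta-catenin, which links cadherins to the cytoskeleton and carries the Wnt signal. Nrn1 encodes neuritin, a small membrane-anchored protein that promotes growth of neurites and synapses and is induced by activity. Of the overlapping genes, Nme7 encodes a member of the nucleoside diphosphate kinase family found at microtubule organizing centres and in cilia, Ulk4 a predicted pseudokinase linked to motile cilia of the ependyma, and Fars2 the mitochondrial phenylalanyl-tRNA synthetase.

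All 3 pairs lie tail to tail in the GENCODE vM21 annotation of GRCm38 (mm10). Nme7 (ENSMUSG00000026575, plus strand, chr1:164304121-164437725) and Atp1b1 (ENSMUSG00000026576, minus strand, chr1:164437109-164458355) overlap by 617 bases, of which 575 are exonic in both. Ulk4 (ENSMUSG00000040936, minus strand, chr9:120955351-121277197) and Ctnnb1 (ENSMUSG00000006932, plus strand, chr9:120929216-120960507) overlap by 5157 bases, of which 759 are exonic in both. Fars2 (ENSMUSG00000021420, plus strand, chr13:36117412-36726280) and Nrn1 (ENSMUSG00000039114, minus strand, chr13:36725361-36735131) overlap by 920 bases, of which 501 are exonic in both. Each overlap includes the annotated 3′ end of the partner, but in which of its exons the shared bases lie was not determined. The pairs differ in how the antisense gene reaches its partner. Protein-coding transcripts of Nme7 end inside the overlap, for example Nme7-207 at position 164437300, and a transcript annotated for nonsense-mediated decay, Nme7-208, runs on to 164437725. The protein-coding Ulk4-209 ends at 120964454, short of Ctnnb1, and only the non-coding transcripts Ulk4-207 and Ulk4-210 enter it. The protein-coding Fars2-201 ends at 36537593, far from Nrn1, and the overlap rests on the non-coding transcript Fars2-211 (chr13:36721926-36726280). Which of these transcripts the 10x reference of the study held was not checked.

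The last 30 bases of a transcript of each gene are printed because these ends are the part the assay captures and the part where the strands meet. Each runs 5′ to 3′ on its own strand of GRCm38, with the polyadenylation hexamer (AATAAA or ATTAAA) in capitals:
Atp1b1-201, minus strand, chr1:164437109-164437138: acaacggacAATAAAagaatgaacacattc
Nme7-207, plus strand, chr1:164437271-164437300: ttcaaAATAAAgatttttattttcaaacaa
Ctnnb1-201, plus strand, chr9:120960478-120960507: tggttcagaATTAAActtttaattcattca
Ulk4-207, minus strand, chr9:120960268-120960297: ttttaagcatATTAAAaaggaaactaatcg
Nrn1-201, minus strand, chr13:36725625-36725654: gaagtataaAATAAAagttattgtttgaaa
Fars2-211, plus strand, chr13:36726251-36726280: cattcctgagattcttttgccaaAATAAAa
The hexamer began 20 to 25 bases before the annotated end in the first 5 of these. In Fars2-211 it began 7 bases before the end, and 14 of the next 20 genomic bases are A, against 0 to 4 in the other printed ends. These are features of the sequence and say nothing of which end was used in these sections.

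The section labelled trained held 4152 spots and 29515831 UMIs (median 5950.5 per spot), and the section labelled untrained 3738 spots and 59029131 UMIs (median 13766.5). Joint clustering without the 6 genes gave 22 clusters, of which 17 took the name of a region from marker genes, the CA1 pyramidal layer and the dentate gyrus granule layer among them. A spot holds several cells, so clusters are regions and not cell types, and fewer cells of a type and less RNA per cell cannot be told apart. Regions of at least 30 spots, 20 in the section labelled trained and 19 in the other, were compared. Cluster 16 stood apart. It held 73 and 94 shallow spots with medians of 1385 and 1449.5 UMIs, had no region name, and Nme7 was among its 10 leading genes although the clustering had not used it. Values are given with and without it where it matters.

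Counts of the 2 libraries moved together at equal barcodes. Visium capture areas carry the same set of barcodes, and 3448 barcodes were in both matrices. At those barcodes Nme7 UMIs of one library correlated with those of the other (Pearson's r = 0.705 over 3448 barcodes), but hardly at the neighbouring barcode (r = 0.0725). Ulk4 behaved in the same way (0.443 and 0.0426), and Fars2 had 0.244 and 0.0452. The partners had r of 0.334 (Atp1b1), 0.332 (Ctnnb1) and 0.314 (Nrn1) at the same barcode, but also 0.239, 0.205 and 0.261 at the neighbouring one. Oxytocin, a gene restricted to a few hypothalamic spots, gave 0.997 and 0.368. Over 92 other genes of at least 1000 UMIs that were 2-fold or more higher under the label trained, the median coefficient was 0.172 UMIs under the label untrained per UMI at the same barcode under the label trained. In the opposite direction it was 0.0521 over 93 genes. The cause was not tested.

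Under the label untrained the level of each antisense gene followed what the other library held at the same barcode. Levels are in counts per 1000000 UMIs (CPM), with 95% exact Poisson intervals that cover counting error only. Nme7 had 10.7 CPM (9.50 to 12.1) at 1758 barcodes with no Nme7 UMI under the label trained, and 107 CPM (99.7 to 115) at 373 barcodes with 6 or more. Ulk4 had 7.68 CPM (6.77 to 8.68) and 67.2 CPM (54.9 to 81.3) at the corresponding barcodes. Fars2 had 20.9 CPM (19.5 to 22.3) and 82.3 CPM (49.6 to 129), the last over 9 barcodes. The partners went from 1300 to 1458 CPM (Atp1b1), from 256 to 324 CPM (Ctnnb1) and from 112 to 197 CPM (Nrn1) between barcodes with none and with 6 or more of their own UMIs in the other library. When 0.17 times the other library was subtracted at each shared barcode, a step chosen after seeing the data, 70.7% of the Nme7 UMIs, 53.0% of the Ulk4 UMIs and 11.2% of the Fars2 UMIs under the label untrained were removed, against 7.53% to 9.35% for the 3 partners. The levels that remained were 8.85 CPM for Nme7, 7.46 for Ulk4 and 25.3 for Fars2. The share removed rises with the ratio between sections, which chose the genes, so nothing is read from its contrast with the partners.

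**Figure D1:**
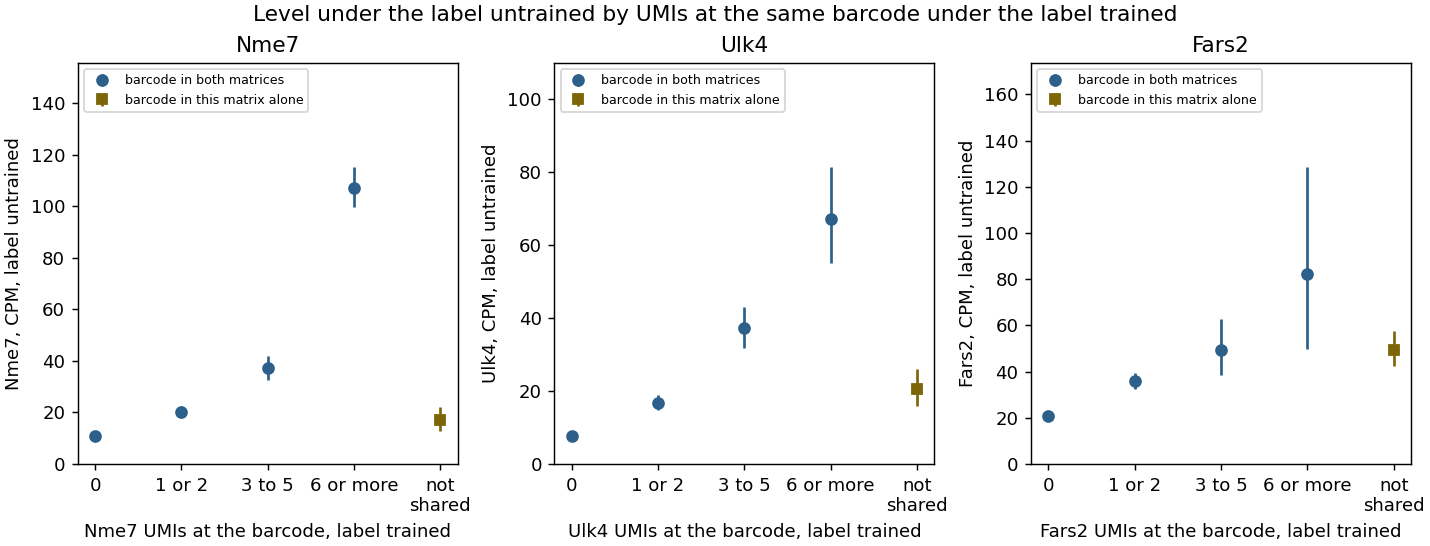
CPM of Nme7, Ulk4 and Fars2 in the section labelled untrained (y axis) for spots grouped by the UMIs of the same gene at the same barcode in the section labelled trained (x axis); circles are barcodes found in both matrices, squares the 290 barcodes found only under the label untrained, and bars are 95% exact Poisson intervals. Nme7 goes from 10.7 CPM at barcodes with no UMI in the other library to 107 CPM at barcodes with 6 or more.

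Over whole sections 2 of the 3 antisense genes were at least 2-fold higher under the label trained, and none of the partners was. Of all 11460 genes compared, 2.79% differed at least 2-fold in either direction and 1.37% were at least 2-fold higher, and since this contrast chose the genes, nothing is read from their count. Nme7 had 283 CPM (277 to 289) in the section labelled trained and 28.1 CPM (26.8 to 29.5) in the one labelled untrained, a log2 ratio of 3.33 (exact binomial interval 3.25 to 3.41), the fourth highest of all genes compared. Atp1b1 had 1537 CPM (1523 to 1551) and 1423 CPM (1414 to 1433), a log2 ratio of 0.11 (0.09 to 0.13). Ulk4 had 105 CPM (101 to 109) and 14.8 CPM (13.8 to 15.8), a log2 ratio of 2.83 (2.72 to 2.94), the sixth highest. Ctnnb1 had 363 CPM (356 to 370) and 286 CPM (282 to 291), a log2 ratio of 0.34 (0.31 to 0.38). Nme7 and Ulk4 thus differed 10.05-fold and 7.10-fold, and their partners 1.08-fold and 1.27-fold. Fars2 had 43.0 CPM (40.6 to 45.4) and 26.6 CPM (25.3 to 27.9), a log2 ratio of 0.69 (0.59 to 0.80) at rank 558, below 2-fold over its whole interval. Nrn1 had 175 CPM (170 to 180) and 133 CPM (130 to 136), a log2 ratio of 0.39 (0.34 to 0.44). The interval of each antisense gene lay above that of its partner. After the subtraction at shared barcodes the log2 ratios of Nme7 and Ulk4 were 4.996 and 3.81. Such a rise follows from the subtraction, which took a larger share of these genes than of all UMIs. Over the 290 barcodes found only under the label untrained, Nme7 had 17.0 CPM and a log2 ratio of 4.04, Ulk4 20.5 CPM and 2.34, and Fars2 49.5 CPM and -0.21. Over the same barcodes Atp1b1 had a log2 ratio of 0.62, Ctnnb1 of 0.46 and Nrn1 of 1.04, so there Fars2 lay below its partner. Those spots were a different mix of regions, since only 82 of the 137 spots of the choroid plexus region (cluster 14) shared their barcode.

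Nme7 followed Atp1b1 over regions under the label trained, but not in the other section. Under the label trained Nme7 was highest in the GABAergic region led by Six3, Pvalb and Trh (cluster 18), at 733 CPM (676 to 793), where Atp1b1 was also highest at 2757 CPM (2645 to 2872). It was lowest in white matter, at 65.5 CPM (53.6 to 79.1), where Atp1b1 was also lowest at 513 CPM (479 to 549). The dentate gyrus granule layer, with 381 CPM of Nme7 and 1897 CPM of Atp1b1, and the choroid plexus region (cluster 14), with 69.1 and 720, lay in the same order. Over the 20 regions Pearson's r of the log2 levels was 0.864 (Spearman's rho 0.782), a description in which all regions share 1 library and its depth. Over square tiles of the spot grid in place of regions it was -0.049, and over tiles of spots with at least 500 UMIs, added after seeing the data, 0.657. Among 8428 other genes with at least 400 UMIs Nme7 had the 13th highest r with Atp1b1, and the median gene had 0.163. A line over regions gave 20.4 Nme7 UMIs per 100 Atp1b1 UMIs with an intercept of -31.0 CPM, and the ratio ranged from 9.605 per 100 in the choroid plexus region to 29.3 in cluster 16.

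Under the label untrained Atp1b1 kept its regional order, with r = 0.945 between sections over the 18 regions found in both, whereas Nme7 did not, with r = 0.298. Nme7 ranged only from 17.9 CPM (11.8 to 26.0) in the CA1 pyramidal layer (cluster 20) to 40.2 CPM (23.0 to 65.2) in the GABAergic region once cluster 16 was set aside, and the intervals of most neighbours in that order overlapped. Cluster 16 itself had 289 CPM (210 to 389). There the counts subtracted at shared barcodes came to 36.5% of UMIs, against 14.8% in the next highest region, cluster 17. After the subtraction no region had more than 33.2 CPM of Nme7. White matter, with the lowest Atp1b1 (622 CPM), had 35.2 CPM of Nme7, and CA1, with the highest (2397 CPM), had the least. Pearson's r was -0.0894 over 19 regions and -0.166 without cluster 16, and Nme7 ranked 7239 of 10478 genes by likeness to Atp1b1. The line over regions gave -0.26 Nme7 UMIs per 100 Atp1b1 UMIs with an intercept of 31.6 CPM, and the pooled ratio was 1.98 per 100. After the subtraction at shared barcodes r was -0.183. Over tiles it was -0.068, and over tiles of the deeper spots 0.163.

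**Figure D2:**
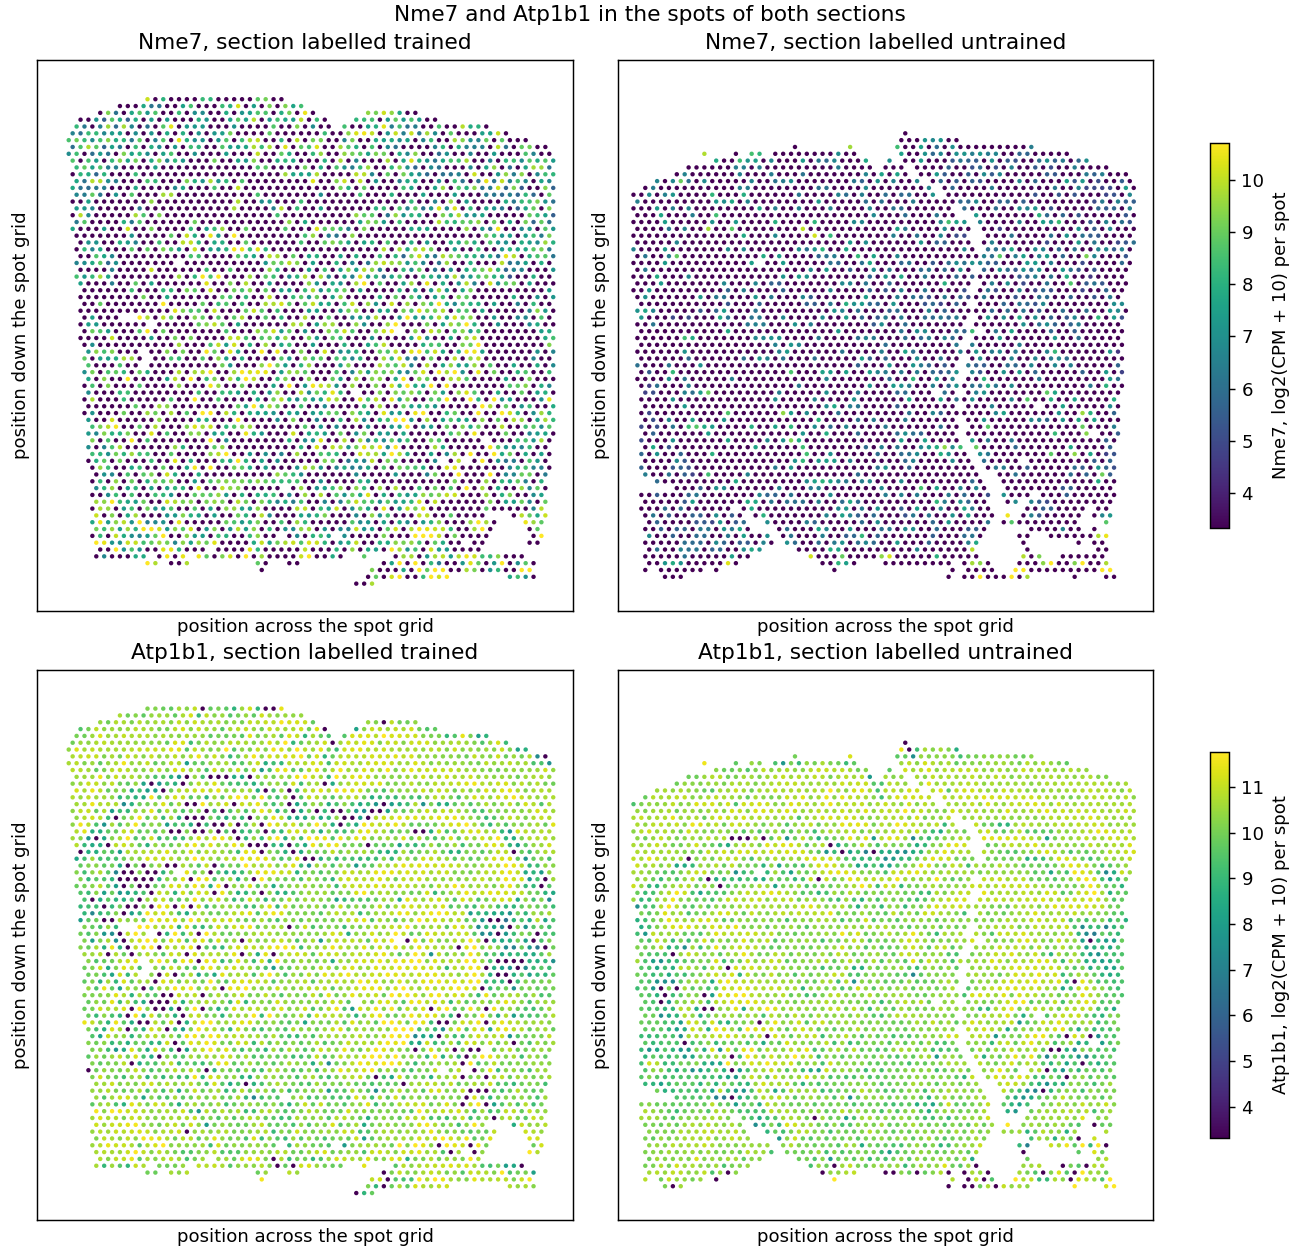
Nme7 (upper row) and Atp1b1 (lower row) in spots of at least 500 UMIs of the section labelled trained (left) and untrained (right); axes are positions on the spot grid and colour is log2(CPM + 10) per spot, on 1 scale per gene. Atp1b1 is low along white matter in both sections, and Nme7 is bright in many scattered spots under the label trained (283 CPM over the section) and in few under the label untrained (28.1 CPM).

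Ulk4 followed Ctnnb1 under the label trained. It was highest in the habenula, at 231 CPM (188 to 282), and in the thalamic region led by Gbx2 and Cbln1 (cluster 4), at 191 CPM (174 to 209). Ctnnb1 was also highest in these regions, with 583 CPM (513 to 661) and 594 CPM (564 to 625). The intervals of the habenula and cluster 4 overlapped for both genes, so their order is not resolved. Ulk4 was lowest in the deep layers of the neocortex, at 43.1 CPM (37.2 to 49.6), where Ctnnb1 had 250 CPM (236 to 265). Next lowest was cluster 7, at 45.2 CPM (33.1 to 60.3), where Ctnnb1 had 265 CPM (235 to 299). Cluster 7 took its name from markers of the CA1 pyramidal layer. Its 295 spots had a median of 2712 UMIs, against 14234 in CA1 cluster 20, and whether they lie in the cell layer was not checked. Pearson's r was 0.894 over 20 regions (rho 0.916). Among 8428 other genes with at least 400 UMIs, Ulk4 was the gene most like Ctnnb1 and Ctnnb1 the gene most like Ulk4. The median gene had an r of 0.0631 with Ctnnb1. The ratio of the pair ranged from 17.0 per 100 in cluster 7 to 39.7 per 100 in the habenula. The line over regions gave 44.8 Ulk4 UMIs per 100 Ctnnb1 UMIs with an intercept of -57.8 CPM, and the pooled ratio without an intercept was 28.9 per 100.

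Ulk4 followed Ctnnb1 only weakly under the label untrained. Ctnnb1 again was highest in the thalamic regions, at 455 CPM (436 to 475) in cluster 4 and 416 CPM (398 to 433) in cluster 2, and its regional order was like that under the label trained (r = 0.915 over 18 regions). Ulk4 had 13.9 CPM (10.7 to 17.6) in cluster 4 and 18.8 CPM (15.3 to 22.8) in cluster 2, and its highest levels lay elsewhere, at 118 CPM (70.2 to 187) in cluster 16 and 34.8 CPM (29.5 to 40.8) in the choroid plexus region (cluster 14). Once the other library was subtracted at shared barcodes, no region had more than 38.5 CPM of Ulk4. Outside cluster 16 the choroid plexus region also had the highest ratio of the pair, 13.2 Ulk4 UMIs per 100 Ctnnb1 UMIs. Pearson's r was 0.356 over 19 regions (rho 0.361), rank 1082 of 10478 genes, and 0.308 without cluster 16. After the subtraction at shared barcodes r was -0.03. With spots thinned to 1000 UMIs it was -0.13, against 0.698 under the label trained. Only 66 Ulk4 UMIs were then left under the label untrained, and 407 under the label trained, too few to compare the sections.

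Fars2 followed Nrn1 under the label trained, with the largest spread in the ratio of the 3 pairs. Fars2 was highest in the dentate gyrus granule layer, at 127 CPM (108 to 148), and in the habenula, at 109 CPM (79.5 to 145). Nrn1 was highest in the same regions, at 523 CPM (484 to 565) and 489 CPM (424 to 560). Neither gene separated the 2 regions beyond its intervals. At the low end the intervals of Fars2 overlapped between regions in which Nrn1 differed, so its lowest region is not resolved. Nrn1 was lowest in the GABAergic region, at 27.6 CPM (17.5 to 41.4), where Fars2 had 21.6 CPM (12.8 to 34.1), and the hypothalamic region led by Pmch and Nts (cluster 5) had 21.4 CPM of Fars2 (16.2 to 27.7) beside 64.2 CPM of Nrn1 (54.9 to 74.6). Pearson's r was 0.772 over 20 regions (rho 0.746), rank 13 of 8428 genes by likeness to Nrn1, and 0.858 without cluster 16. The line over regions had an intercept of 16.9 CPM and a slope of 14.9 Fars2 UMIs per 100 Nrn1 UMIs, and the pooled ratio without an intercept was 24.6 per 100. The ratio ranged from 16.4 per 100 in thalamic cluster 4 to 78.3 in the GABAergic region once cluster 16, at 9.52, was set aside.

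Fars2 took a different order from Nrn1 under the label untrained. It was highest in the choroid plexus region, at 64.7 CPM (57.4 to 72.7), above the interval of every other region, while Nrn1 was lowest there at 39.6 CPM (33.9 to 45.9), a ratio of 164 per 100. In the dentate gyrus granule layer, where Nrn1 was again highest at 253 CPM (237 to 270), Fars2 had 24.9 CPM (20.03 to 30.5), and its interval overlapped those of most other regions. Pearson's r was -0.15 over 19 regions (rho 0.207), rank 7963 of 10478. With spots thinned to 1000 UMIs r was 0.327, beside 0.391 under the label trained, but only 74 and 140 Fars2 UMIs were then left over all regions, too few to compare the sections. The choroid plexus region had about the same Fars2 level in both sections, with 54.9 CPM (36.2 to 79.9) under the label trained.

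**Figure D3:**
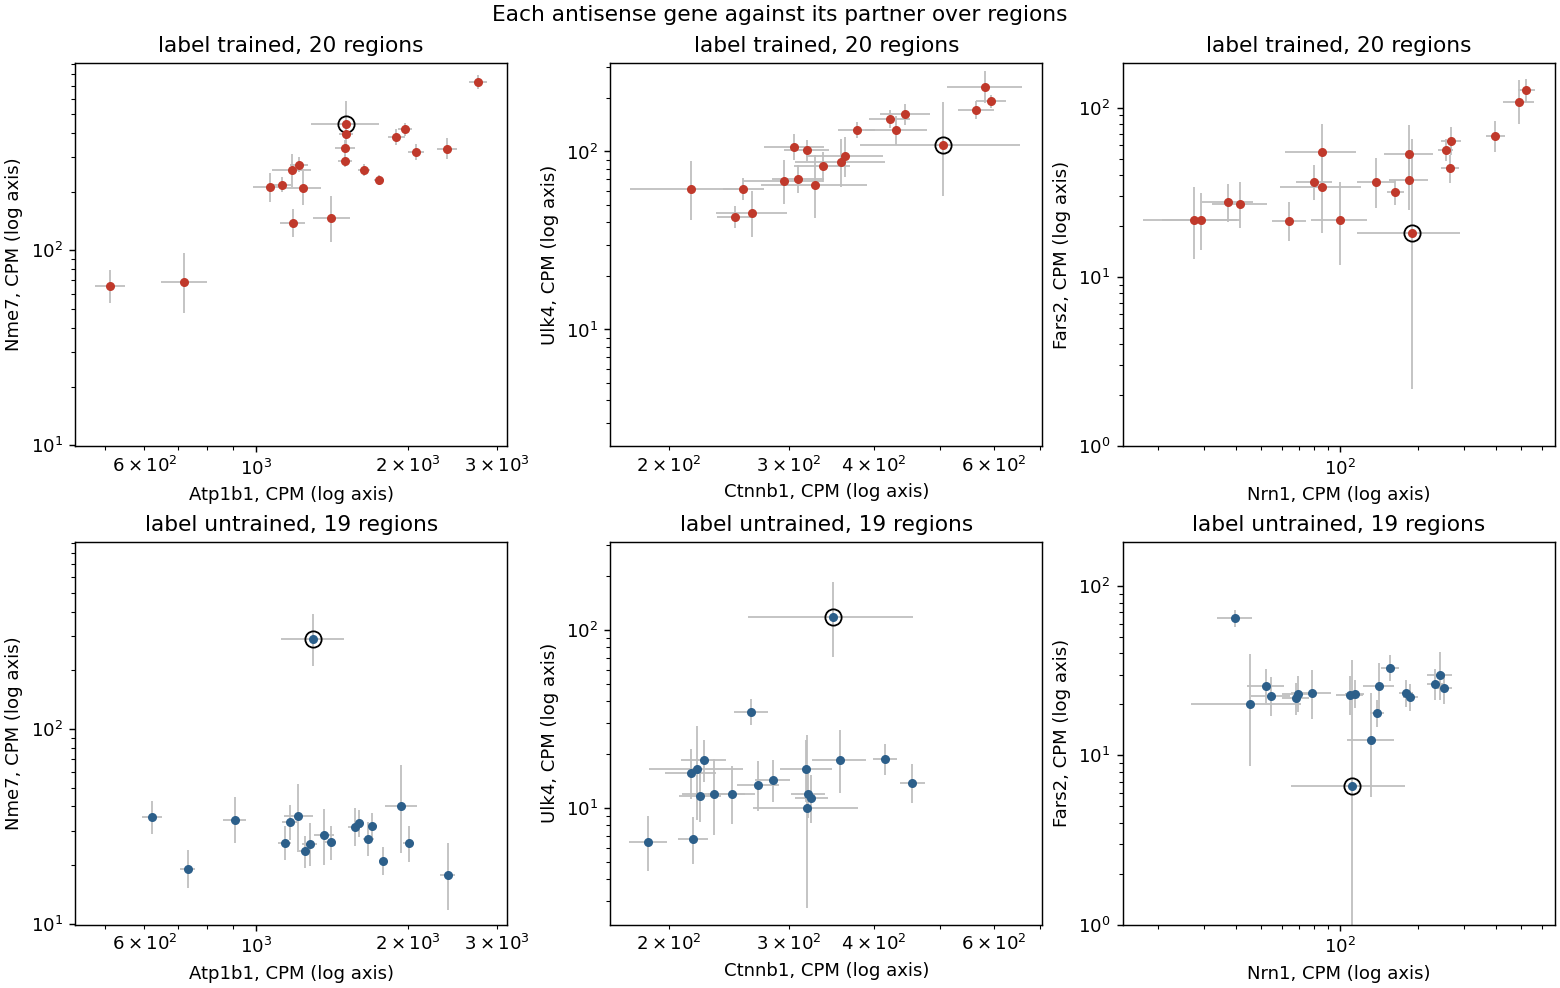
CPM of each antisense gene (y axis, log scale) against CPM of its partner (x axis, log scale) in regions of at least 30 spots, with the label trained in the upper row and the label untrained in the lower row; bars are 95% exact Poisson intervals and cluster 16 is ringed. The points line up under the label trained (r = 0.864, 0.894 and 0.772) and less or not under the label untrained (r = -0.09, 0.356 and -0.15).

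Under the label trained the r of an antisense gene with the partner of another pair was at most 0.391, for Nme7 with Ctnnb1. The levels of an antisense gene under the label trained followed its partner in the other section too, with r = 0.757 for Nme7 and Atp1b1, 0.789 for Ulk4 and Ctnnb1 and 0.702 for Fars2 and Nrn1 over 18 regions. The antisense genes under the label untrained did not follow the partners under the label trained to that extent (0.0153, 0.399 and -0.0556). The order of regions of the partners was the same in both sections to r = 0.915 or more, and that of the antisense genes only to 0.298 for Nme7, 0.238 for Ulk4 and 0.391 for Fars2, or 0.2503, 0.347 and 0.226 without cluster 16.

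Except for Ulk4 and Ctnnb1, other genes had patterns at least as close. Under the label trained the genes most like Nme7 were Ndufs4, a subunit of mitochondrial complex I (r = 0.897), Dnm1l, the dynamin-related protein of mitochondrial fission (0.885), Sucla2, a mitochondrial ligase of the citric acid cycle (0.874), the cytochrome c oxidase subunit Cox5b (0.873) and the peroxisomal import protein Pex14 (0.870), with Atp1b1 at rank 7. Nsf, which separates SNARE complexes after membrane fusion, was nearest to Atp1b1 (0.915). After Ctnnb1, Ulk4 was most like Zic1, a zinc finger transcription factor (0.825), and F2r, a thrombin receptor (0.818). The genes most like Fars2 were B230219D22Rik (0.803), Aagab (0.794), the kinase Nek6 (0.782) and Rnf170 (0.775), with Nrn1 at rank 5. None of the partners under the label untrained was among the 5 genes nearest to its antisense gene, and the nearest to Nme7 was Rab8a, a GTPase of membrane traffic (0.891).

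Spots of 1 region were also compared, which removes the differences between regions. Within each region the third of spots with the highest share of UMIs for the partner was set against the third with the lowest, giving 1306 spots on each side for the label trained and 1175 for the label untrained. Under the label trained Nme7 had 469 CPM in spots rich in Atp1b1 and 123 CPM in spots poor in it, a log2 ratio of 1.92 (exact binomial interval 1.83 to 2.02), the highest of 8428 genes, whose median was 0.08. Ulk4 had 147 CPM in spots rich in Ctnnb1 and 67.8 CPM in spots poor in it, a log2 ratio of 1.11 (0.97 to 1.25), again the highest of 8428. Fars2 had 54.7 and 32.1 CPM by Nrn1, a log2 ratio of 0.77 (0.56 to 0.98), the second highest. Among all genes with at least 100 UMIs the ranks were 3, 6 and 32.

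The same contrast was smaller under the label untrained at the deposited depth. Nme7 had 28.9 and 28.3 CPM, a log2 ratio of 0.03 (-0.15 to 0.21) at rank 6200 of 10478. Ulk4 had 16.2 and 13.2 CPM, a log2 ratio of 0.29 (0.04 to 0.55) at rank 175. Fars2 had 26.5 and 23.4 CPM, a log2 ratio of 0.18 (-0.01 to 0.38) at rank 1326. The interval of Ulk4 alone lay above 0. After every spot was thinned to 1000 UMIs, at which a spot held on average 1.37 Atp1b1 UMIs, 0.362 of Ctnnb1 and 0.150 of Nrn1 under the label trained, the log2 ratios there were 0.96, 0.18 and -0.20. At 5000 UMIs, a depth added after seeing the data, they were 1.61, 0.70 and 0.25. Under the label untrained they were -0.05, 0.18 and 0.42 at 1000 UMIs and 0.23, -0.04 and 0.03 at 5000. With under 1 Ctnnb1 or Nrn1 UMI per spot at 1000 UMIs, spots can hardly be ranked by these partners, and the values of Ulk4 and Fars2 at that depth give no order of the sections. Ranking spots by the antisense gene instead gave, under the label trained, 1828 against 1309 CPM of Atp1b1 (log2 ratio 0.48), 404 against 326 CPM of Ctnnb1 (0.31) and 196 against 156 CPM of Nrn1 (0.33), at ranks 130, 360 and 109 of 8428.

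**Figure D4:**
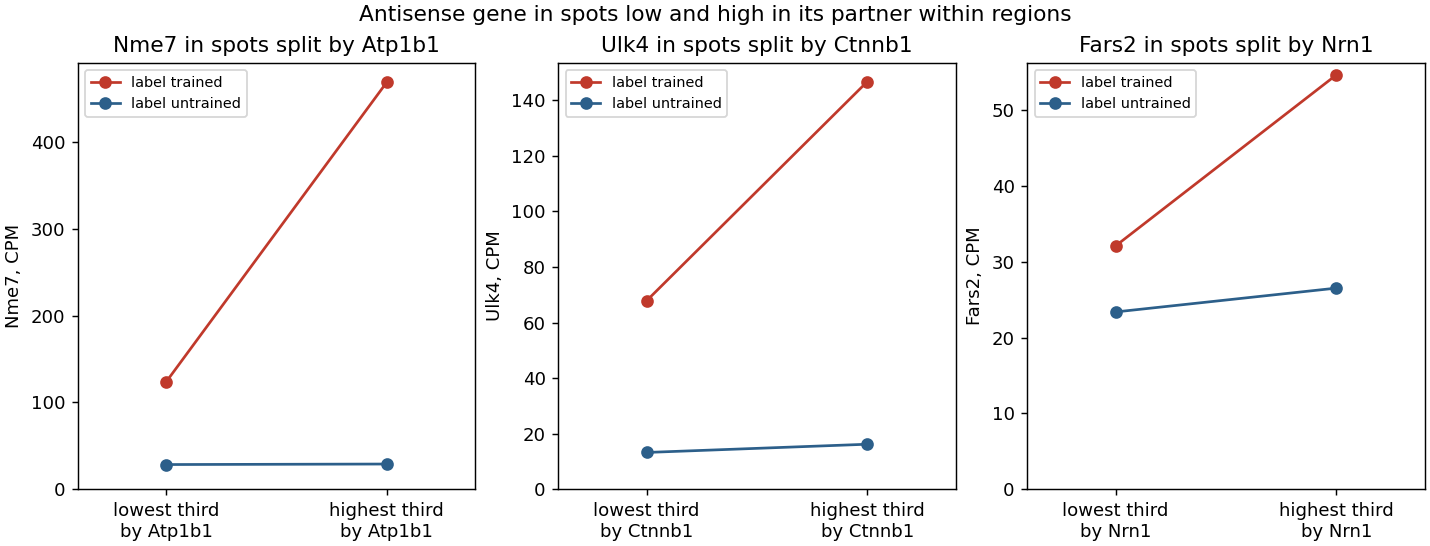
CPM of each antisense gene in the third of spots with the lowest and the third with the highest share of its partner within the same region (x axis), for both sections, drawn without intervals. Under the label trained Nme7 goes from 123 to 469 CPM, and under the label untrained it stays at 28.3 and 28.9.

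Nme7 and Ulk4 were unevenly spread over spots under the label trained. The variance of a gene's UMIs within regions over the mean expected from depth is 1 when counts differ by counting alone, and its median over all genes was 1.06 for the label trained and 1.05 for the other section. Nme7 had 6.003 under the label trained, rank 29 of 8429 genes, and was found in 2017 of 3936 spots where counting alone would give 2873, with 4.11 UMIs in each spot that held it. In the other section it had 1.84, rank 303 of 10479, but the measure grows with the level of a gene, so the sections cannot be compared by it where levels differ. Ulk4 had 2.61 and 1.18, and Fars2 1.502 and 1.04, the latter below the median of all genes. Atp1b1 had 2.42 and 2.83, Ctnnb1 1.28 and 1.15, and Nrn1 1.39 and 1.38. Moran's I, a score of how alike neighbouring spots are that the authors deposited, was 0.0826 and 0.0330 for Nme7, 0.0796 and 0.0320 for Ulk4 and 0.0552 and 0.0455 for Fars2 under the labels trained and untrained. The partners had higher scores of 0.324 and 0.327 (Atp1b1), 0.150 and 0.193 (Ctnnb1) and 0.3005 and 0.294 (Nrn1).

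The ratio between sections was not the same in all regions. Nme7 was higher under the label trained in 18 of 18 regions, at least 2-fold in 16, from a log2 ratio of 0.61 (-0.01 to 1.23) in cluster 16 and 0.90 (0.50 to 1.30) in white matter to 4.19 (3.64 to 4.85) in CA1 cluster 20. Ulk4 was at least 2-fold higher in 17 of 18, from 1.34 (0.81 to 1.83) in the choroid plexus region to 3.78 (3.41 to 4.18) in thalamic cluster 4, with -0.11 (-1.32 to 1.004) in cluster 16. Fars2 was at least 2-fold higher in 7 of 18, and in 6 of 17 without cluster 16, where it had 2 against 1 UMIs. It had its highest log2 ratio in the dentate gyrus granule layer, at 2.35 (1.97 to 2.74), a 5.10-fold difference, and 1.86 (1.22 to 2.51) in the habenula. The choroid plexus region, at -0.21 (-0.86 to 0.33), hypothalamic cluster 5, at -0.11 (-0.65 to 0.42), and white matter, at 0.06 (-0.51 to 0.61), had intervals that include 0. Atp1b1 and Ctnnb1 were 2-fold higher in no region, with log2 ratios from -0.28 to 0.51 and from -0.03 to 0.71, and Nrn1 in 4 of 18, from -0.87 to 1.22.

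**Figure D5:**
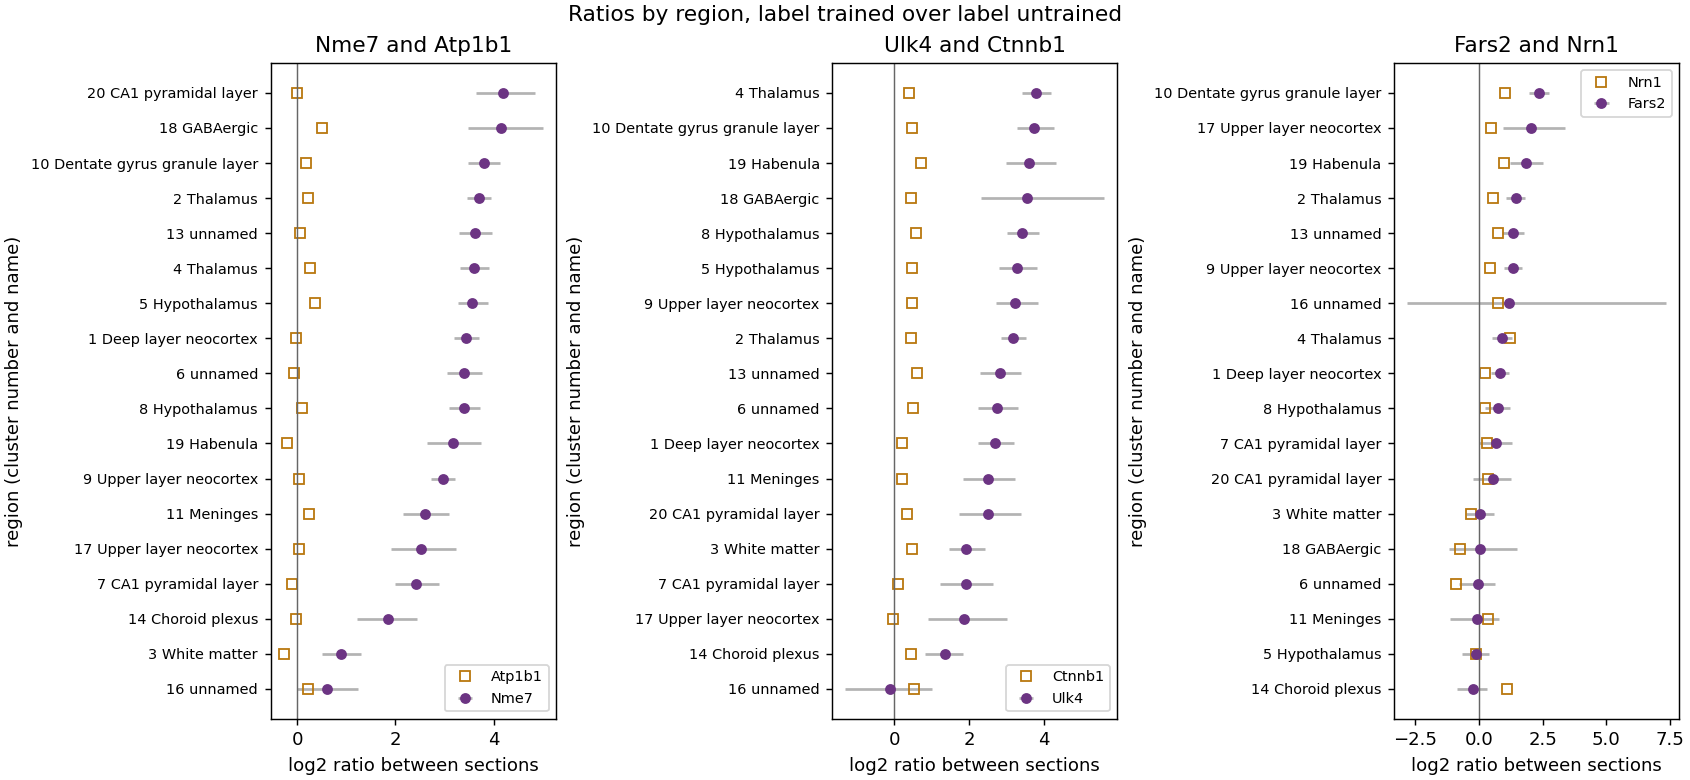
Log2 ratio between sections (label trained over label untrained, x axis) by region (y axis) for each antisense gene (filled, with 95% exact binomial intervals) and its partner (open squares). Nme7 reaches 4.19 in CA1 cluster 20 and Fars2 2.35 in the dentate gyrus granule layer, and the 3 partners lie between -0.87 and 1.22.

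All overlapping genes of the annotation, the 3 pairs included, give the background. Of 514 pairs with exonic overlap on opposite strands, both with enough UMIs, the median regional r was 0.176 in the section labelled trained and 0.196 in the other, and 15 and 18 pairs reached 0.75, the 3 pairs described here among the 15. In these pairs 1.2% of 500 lower genes (6 genes, Nme7 and Ulk4 among them) were at least 2-fold higher under the label trained. Where the genes lay tail to tail and the partner was at least 5 times higher in the summed CPM of both sections, as for Nme7 and Ulk4, the median r of 62 pairs was 0.207 and 0.304, and 4 and 2 reached 0.75. The lower gene was at least 2-fold higher in 3 of 62 (4.84%), of which Nme7 and Ulk4 are members chosen for this, and the remaining one was Zcchc14, named after its value was seen, at a log2 ratio of 1.24. Fars2 is not among the 62, since Nrn1 was less than 5 times higher on that sum.

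Most relatives of the genes that were compared differed less than 2-fold between sections, as did all but 2.79% of all genes compared. In the nucleoside diphosphate kinase family 1 of 6 passed 2-fold, Nme3 at a log2 ratio of 1.03 (7.35 against 3.61 CPM). None of 3 ULK-family kinases compared, of 13 Wnt and catenin partners (Ctnna1 at -0.28 to Cdh2 at 0.62), of 16 tRNA synthetases (Sars2 at -0.68 to Iars2 at 0.92) or of 4 plasticity effectors (Nptx2 at -0.13 to Homer1 at 0.25) passed. Of 7 markers of ciliated ependymal cells compared, 4 were at least 2-fold lower under the label trained, Tmem212 at -1.59, Ccdc153 at -1.55, Dynlrb2 at -1.23 and Pifo at -1.17, and the list summed to 93.7 CPM against 179 CPM. The background was 1.37% for 2-fold higher genes and 1.42% for 2-fold lower genes. The sections also differed in ventricular tissue, with 45 spots of the choroid plexus region (cluster 14) in the section labelled trained and 137 in the other, and the part of this in the marker levels was not tested.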

How the data were processed

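Visium libraries of 1 section per label were compared. Per the labels and methods, the authors trimmed reads with TrimGalore and counted them with Space Ranger 2.0.0 on the 10x mouse reference mm10, and deposited UMI counts per gene and spot as well as Moran's I, a score per gene, computed by the authors for each section. Whether intronic reads were counted is not given in the sources used here. The members and gene lists were chosen with earlier results of these data known.

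Counts were summed over spots and divided by total UMIs (CPM), with 95% exact Poisson or binomial intervals that cover counting error only. Log2 ratios used a pseudocount of 0.5 UMI, and genes needed 400 UMIs over both sections. Spots of at least 500 UMIs (194 and 114 were left out) were clustered on 1025 genes without the 6 members (3000 variable genes per section, 30 principal components, 15 neighbours, Leiden resolution 1.5, seed 7). Clusters were named from markers, no doublets were called, and regions of at least 30 spots were used. Regional r was taken on log2(CPM + 1). The text names the members, the listed relatives and the 5 genes with the most alike regional levels. The steps were tested on simulated data. Overlaps and sequences came from the GRCm38 genome and GENCODE vM21. Clustering used leidenalg 0.10.2 with igraph 0.11.9 and scikit-learn 1.9.0, intervals scipy 1.17.1, figures matplotlib 3.10.9, and the rest pandas 2.3.3 and numpy 2.4.6 in Python 3.11.15. Alternatives varied the total, the weighting of spots, the regions, the depth, the side of the array and the counts at shared barcodes. The result of 1 list of relatives is not reported here.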

Additional observations from a re-analysis of the deposited data

How the results depend on the processing

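With 1 section per label, no result had a test, and the limits are those of 1 library each, of shallow spots and of counts shared at equal barcodes. No paired analysis was possible because each label has 1 sample. Of the settings planned for the main results, 68 values stayed within the tolerance, 48 moved and 4 were counted as turned in direction, and of the settings added after seeing the data 35, 15 and 3 did. Values of the label untrained that lay near 0 also changed sign among the others. Leaving out cluster 16 moved none of them. Except where stated, the cause was not tested.

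Section log2 ratios moved as follows. Nme7 was 2.92 with each spot weighted equally, 2.66 with spots thinned to 1000 UMIs, 4.04 over barcodes found only under the label untrained and 4.996 less the other library at the same barcode. Ulk4 was 2.41, 2.49, 2.34 and 3.81 in that order, and 2.59 and 2.98 on the left and right side of the array. Fars2 was 0.45 and 0.87 on the left and right side and -0.21 over the unshared barcodes. Atp1b1 was 0.046 without mitochondrially encoded genes, 0.037 scaled by the median ratio, 0.0501 with equal weights, 0.044 thinned and 0.62 over the unshared barcodes. Ctnnb1 was 0.28, 0.27 and 0.46 under the first 3 of these, 0.22 and 0.42 on the left and right side, 0.46 over the unshared barcodes and 0.38 after subtraction. Nrn1 was 0.33, 0.32 and 0.54 under the first 3, 0.31 on the left side and 1.04 over the unshared barcodes.

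Regional r under the label trained was -0.049 for Nme7 over square tiles of all spots and 0.657 over tiles of spots with at least 500 UMIs. It was 0.718 thinned. Over tiles and thinned it was 0.654 and 0.698 for Ulk4 and 0.577 and 0.391 for Fars2. For the label untrained it was 0.163 for Nme7 over the deeper tiles and -0.20 and 0.0297 on the left and right side. For Ulk4 it was 0.124 over tiles, 0.470 on the left side, -0.13 thinned and -0.0295 after subtraction. For Fars2 it was -0.27 at Leiden resolution 0.8, 0.0398 over tiles, -0.36 over the deeper tiles, -0.26 on the right side and 0.327 thinned.

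The slope per 100 partner UMIs, taken as a pooled ratio without an intercept, was 28.9 for Ulk4 and 24.6 for Fars2 under the label trained and 1.98, 5.15 and 19.97 for Nme7, Ulk4 and Fars2 under the label untrained, where the lines of Nme7 and Fars2 had the opposite sign. There Nme7 was 0.38 over tiles and -0.19 and -0.10 on the left and right side, and Fars2 -3.16 on the right side. The within-region log2 ratio under the label trained, with spots divided at the median, thinned to 1000 UMIs and thinned to 5000 UMIs, was 1.39, 0.96 and 1.61 for Nme7, 0.76, 0.18 and 0.70 for Ulk4 and 0.54, -0.20 and 0.25 for Fars2. For the label untrained it was 0.23 for Nme7 and -0.041 for Ulk4 at 5000 UMIs and 0.42 for Fars2 at 1000.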

Other observations

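Among 61 tail-to-tail pairs with a partner at least 5 times higher, the within-region contrast placed 4 lower genes among the 10 highest of all genes in the section labelled trained and 0 in the other. Besides Nme7 and Ulk4 these were Daglb and mt-Nd6, chosen here after their values were seen. Daglb, a diacylglycerol lipase gene that overlaps Rac1, had a log2 ratio of 0.67 at rank 2 of 8428 in the first and 0.10 at rank 3055 of 10478 in the second. The mitochondrially encoded mt-Nd6, which overlaps mt-Nd5, had 0.80 at rank 5 and 0.84 at rank 11.

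Nme7 under the label untrained also varied with the depth of a spot, from 289 CPM in spots of 500 to 2000 UMIs to 23.7 CPM in spots of at least 20000. Ulk4 went from 129 to 13.5 CPM between these classes, and Fars2 from 7.59, on 1 UMI, to 29.4. The shallow cluster 16 also had the largest share of counts subtracted at shared barcodes, 36.5%, and the part of these counts in the trend was not tested. Under the label trained Nme7 had 131 and 290 CPM in the same classes.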
